A study of Mus musculus with 8 samples.

Results

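Ribosome-protected mRNA fragments (RPF, or footprints) were compared between mouse embryonic fibroblasts transduced for METTL1 and WDR4 together (OE) and fibroblasts with the empty vector (EV). The comparison takes the 4 footprint libraries of the series, 2 EV and 2 OE, out of 8 samples in all. It covers 9296 of the 9307 genes in the deposited table, chosen by a minimum mean value of 1 over the 4 libraries. The input RNA libraries were not used, so a difference below can come from the amount of an mRNA, from the ribosomes on each mRNA, or from both.

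Both groups are fibroblast lines immortalised with SV40 T antigen, which drives division by disabling p53 and the retinoblastoma protein. Transduction was with pBabe retroviral vectors, the OE cells receiving wild-type METTL1 and WDR4, and both lines were kept under puromycin and G418 until expansion. Lysates were made after cycloheximide had stopped elongation, and libraries were prepared with a TruSeq Ribo Profile kit after ribosomal RNA depletion. The labels speak of stable clones: whether a genotype is 1 clone, and so whether a difference belongs to the clone or to METTL1 and WDR4, cannot be told apart. They do not say that replicates are separate cultures, so p-values measure the spread between libraries, which may be technical only.

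METTL1 is the catalytic subunit, and WDR4 the structural partner, of the enzyme that places 7-methylguanosine in the variable loop of a subset of tRNAs. The mark protects those tRNAs from decay. An arginine tRNA that reads the codon AGA is one of its substrates, and METTL1 is known as an oncogene in several tumours in which this tRNA is abundant. A ribosome shields a short stretch of mRNA from nuclease, and the number of such stretches on a gene follows how many ribosomes were on its mRNAs at lysis.

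The EV libraries held 707344 and 618526 reads in the listed genes, and the OE libraries 864147 and 526699. A gene of median depth had 23 to 38 reads in a library. Levels are given as reads normalized by the authors' size factors. Differences are log2(value + 1) fold changes, OE over EV, with their standard error (SE), and tests are two-sided limma tests adjusted over all genes, with a threshold of 0.05 and n = 2 libraries a group. The first principal component held 44.7% of the variance and parted EV from OE, and the second held 31.4% and parted the first OE library from the second. Of 15 fibroblast markers 14 were in the table, and their summed level was 9580 in each EV library and 10184 and 10930 in the OE libraries. No endothelial or muscle marker was in the table, and such genes are not analysed here. The 1 epithelial marker in the table of 8, Krt18, had 6.59 and 3.76 in EV against 12.6 and 18.9 in OE (1.45, limma adjusted p = 0.0553). The summed level of 2 macrophage markers of 8 was 15.8 and 18.8 against 9.33 and 10.8, that of 3 neural markers of 8 was 81.8 and 73.0 against 96.0 and 93.4, and that of 2 adipocyte markers of 6 was 17.1 and 18.1 against 15.9 and 11.7. Their part in the results was not tested.

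The genes of the complex came first as a check of the labels. Mettl1 (chr10:127041414-127046365, build mm10) had 25.7 and 25.6 in the EV libraries and 40.1 and 22.4 in the OE libraries. The OE libraries lay on either side of the EV libraries, and the change of 0.22 (SE 0.26) did not pass limma (adjusted p = 0.761), nor did 0.51 with the median of its chromosome subtracted (limma adjusted p = 0.399). Wdr4 (chr17:31494322-31519980) had 15.2 and 15.1 against 25.8 and 24.2, with both OE libraries above both EV libraries. Its change was 0.69 (SE 0.28, limma adjusted p = 0.236). The species of the METTL1 and WDR4 sequences in the vectors is not given in the sources used here, and footprints on a human sequence need not be counted on the mouse gene.

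Of the 9296 genes, 119 (1.28%) were higher and 55 (0.592%) lower in OE. Among those that rose the median size of the change was 0.83, and 40 rose by more than 1, while 14 of those that fell did so by more than 1. Both OE libraries lay above both EV libraries in 21.9% of all genes and below them in 22.3%. The called genes were better covered than most: their median level was 82.0 for rises and 104 for falls, beside 20.8 over all genes. When 1 library was left out in turn, 36 of the 174 calls passed all 4 times, 32 of them rises and 4 falls. Without 1 EV library the spread comes from the OE pair alone, and without 1 OE library from the EV pair alone. The variance between OE libraries was 1.78 times that of counting error, beside 1.09 times between EV libraries. Fewer genes passed without an EV library than without an OE library. A call lost without an EV library, here and below, thus does not show that the change rests on that library.

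**Figure D1:**
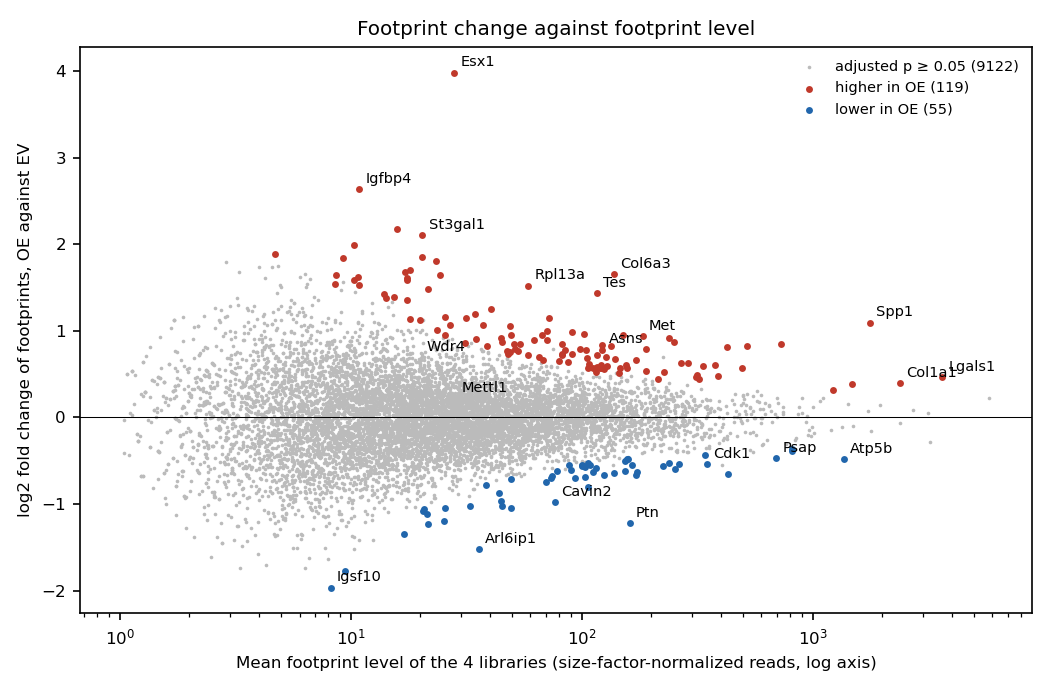
Each point is 1 of 9296 genes, with the mean footprint level of the 4 libraries on a log axis and the log2 fold change of OE over EV on the other. The 119 genes that rose and the 55 that fell are coloured, and Esx1 stands alone at 3.98.

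The largest rise was that of Esx1 (chrX:137115397-137122083), an X-linked homeobox gene known from placenta and testis. It had 2.64 and 2.26 in the EV libraries and 57.6 and 49.4 in the OE libraries. These are 4 and 3 reads against 105 and 55, so the EV level is poorly measured, while the OE level is far above it in both libraries. The change was 3.98 (SE 0.33, limma adjusted p = 1.72e-08), and the ratio of reads was 21.8 with a 95% interval of 10.3 to 55.1 that covers counting error only. In bulk lysates, few cells with much of an mRNA and many cells with little cannot be told apart. Igfbp4, a secreted protein that binds insulin-like growth factors, had 3.30 and 1.51 against 18.1 and 20.7, a rise of 2.63 (SE 0.42, limma adjusted p = 0.000679). St3gal1, a sialyltransferase of the Golgi, had 10.5 and 4.52 against 33.5 and 33.2, and its rise was 2.11 (SE 0.34). In each of these 3 genes the lowest OE library was above the highest EV library, and each passed with any 1 library left out.

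A further 11 of the 15 largest rises lay between 1.58 and 1.99. They were Rorb, a nuclear receptor (1.99), Clu, the secreted chaperone clusterin (1.86), Ptprn, a phosphatase-like protein of secretory granules (1.81), Pkp1, a desmosome protein (1.71), Dclk1, a kinase that binds microtubules (1.68), Col6a3 (1.66), Mdfic (1.65), Fstl3, which binds activin (1.62), the receptor Notch1 (1.61), the kinase Ptk2b (1.58) and Gpt2, the mitochondrial alanine aminotransferase (1.58). Apart from Col6a3, none had more than 17 reads in an EV library. Fstl3 had 9 and 5, and 47.3% of its exon bases overlap another gene. Trib3 rose by 1.84 and is described with its list below, since its mean level was under the 10 asked of this ranking. Fstl3 and Ptk2b each lost the call without 1 EV library and again without 1 OE library. Rorb and Gpt2 lost it without the second EV library and Notch1 without the first. With the median of its chromosome subtracted, Ptk2b had a change of 1.55 and did not pass (limma adjusted p = 0.0535).

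Falls were smaller. Arl6ip1 (chr7:118118891-118129662), which shapes tubules of the endoplasmic reticulum, had 51.4 and 55.7 in the EV libraries and 18.1 and 17.96 in the OE libraries. Replicates lay close together, and the fall was -1.52 (SE 0.22, limma adjusted p = 0.00021). Ptn (chr6:36714929-36810220), the secreted growth factor pleiotrophin, had 212 and 241 against 108 and 86.2, a fall of -1.22 (SE 0.14, limma adjusted p = 4.26e-06). Cavin2, a coat protein of caveolae, had 102 in both EV libraries against 53.2 and 49.4, a fall of -0.98 (SE 0.16, limma adjusted p = 0.000679). All 3 passed with any 1 library left out. Pdlim1, which links LIM proteins to actin, fell by 1.35 and the membrane adaptor Ank3 by 1.23. Between -0.87 and -1.20 lay Gstm1, a glutathione transferase (-1.20), Hmgn5, which binds nucleosomes (-1.12), Crybg1 (-1.08), Vgll4, a cofactor of TEAD factors (-1.06), Cotl1, which binds actin (-1.05), Esyt1, a tether of the reticulum to the plasma membrane (-1.05), Cdkn1b (-1.02), Myl6 (-1.02), Ttyh2 (-0.96) and the DNA repair gene Brca1 (-0.87, and -0.51 without the second OE library). These 15 are the largest falls among genes with a mean of at least 10. Apart from Arl6ip1, Ptn and Cavin2, each of the 15 lost the call with 1 or more libraries left out in turn. Igsf10 (-1.97) and Tysnd1 (-1.77) fell further, but their means of 8.19 and 9.41 were under that limit. The falls of Ank3, Crybg1 and Myl6, on chromosome 10, and of Vgll4, on chromosome 6, did not pass with the median of the chromosome subtracted (limma adjusted p = 0.0776, 0.162, 0.124 and 0.102).

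**Figure D2:**
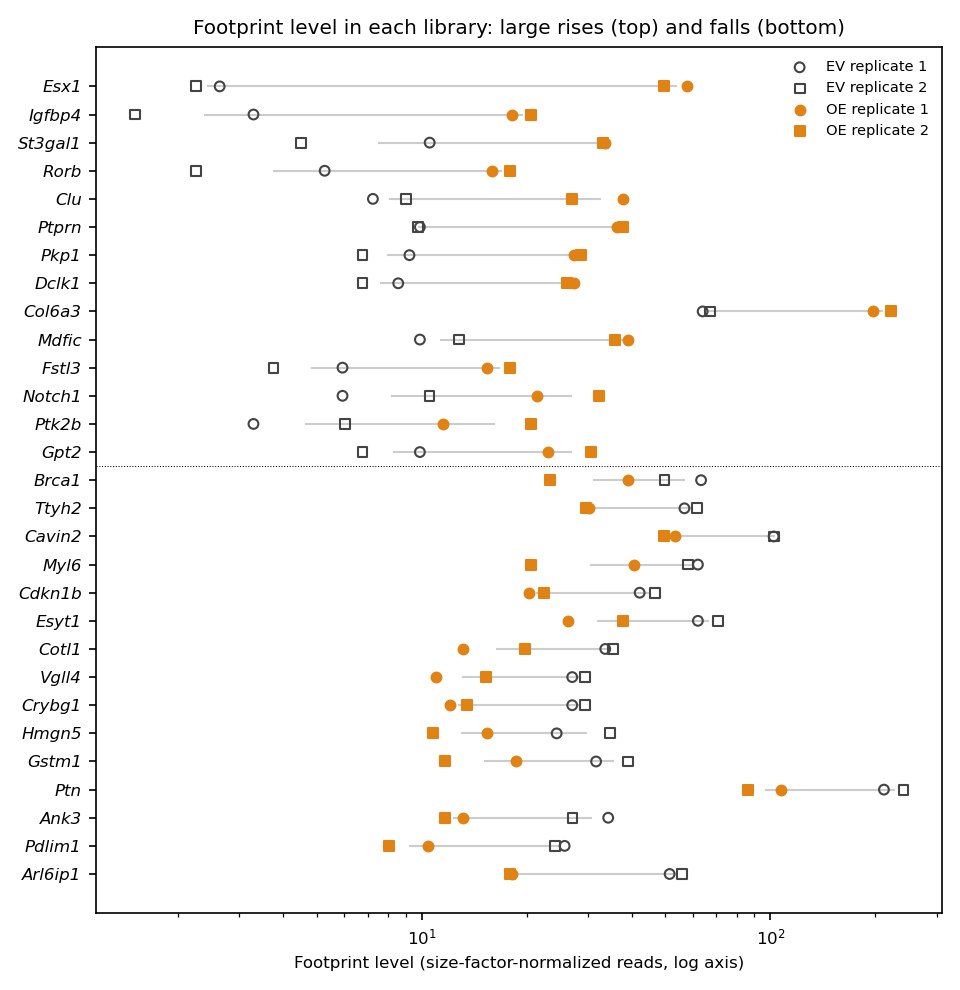
Footprint level of 14 of the 15 largest rises (top) and the 15 largest falls (bottom) in each library, on a log axis in size-factor-normalized reads, with EV libraries as open and OE libraries as filled marks and a grey line between the group means. Genes were ranked only where the mean level was at least 10 and both OE libraries lay beyond both EV libraries. Among the genes drawn, the falls span a shorter distance than the rises.

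Among strongly translated mRNAs, the change of Spp1 was the best measured. Spp1 (chr5:104435118-104441050) encodes osteopontin, a secreted matricellular phosphoprotein. It had 1102 and 1144 against 2470 and 2330, a rise of 1.09 (SE 0.08, limma adjusted p = 3.79e-09). Lgals1, the lectin galectin-1, had 3206 and 2871 against 4907 and 3595, and Col1a1, the main chain of fibrillar collagen, had 2056 and 2071 against 2533 and 2892. Their rises were 0.47 (SE 0.10, limma adjusted p = 0.00917) and 0.39 (SE 0.08, limma adjusted p = 0.00841). The scaffold protein of the small ribosomal subunit Rack1 rose by 0.39 and the nucleolar protein Ncl by 0.32. Ncl is on chromosome 1, and its change was 0.06 with the chromosome median subtracted (limma adjusted p = 0.842). B2m, the light chain of MHC class I, rose by 0.85, with 509 and 510 against 1192 and 705, so the OE libraries differ from each other by more than the second OE library differs from EV. The falls at this level were Atp5b, the beta subunit of ATP synthase (-0.49), the lysosomal precursor Psap (-0.47), the linker histone Hist1h1b (-0.39) and the giant scaffold Ahnak (-0.36). Of these 10 genes of highest level, Spp1 and B2m passed with any 1 library left out, and the other 8 did not pass with either EV library left out. Without the first OE library the changes of B2m, Lgals1 and Hist1h1b were 0.47, 0.24 and -0.23.

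The lists that follow are read against shares of 1.28% higher and 0.592% lower, and of 21.9% and 22.3% with groups apart. In the list of ATF4 targets and amino acid response genes, which the transcription factor ATF4 induces when amino acids run short or the reticulum is stressed, 9 of 32 measured genes rose and none fell. The groups were apart upward in 27 and apart downward in none, and the median change was 0.51 beside 0.00 over all genes. Asns, asparagine synthetase (chr6:7675169-7693254), had 89.7 and 90.3 against 160 and 152, a rise of 0.78 (SE 0.13, limma adjusted p = 0.0013). Trib3, a pseudokinase, had 3.96 and 3.01 against 13.2 and 17.1 and rose by 1.84. Gpt2 had 9.89 and 6.78 against 23.05 and 30.5. Enzymes of serine and proline synthesis and of folate metabolism were among the rises: Psph (0.91), Psat1 (0.47), Aldh18a1 (0.58) and Aldh1l2 (1.38). So were Slc3a2, the heavy chain of amino acid exchangers (0.57), and the transcription factor Cebpb (0.57). Atf4 itself, named here because the list bears its name, had 34.3 and 38.4 against 50.5 and 67.3. Its change of 0.67 did not pass (limma adjusted p = 0.0746). Asns passed with any 1 library left out, Trib3 and Gpt2 did not pass without the second EV library, and the other 6 did not pass with either EV library left out. The change of Cebpb was 0.36 without the second OE library.

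Aminoacyl-tRNA synthetases, which charge tRNAs and many of which are ATF4 targets, had a smaller shift in the same direction. The groups were apart upward in 15 of 23 and downward in none, the median change was 0.24, and 2 rose. Eprs, which charges glutamate and proline, had 156 and 153 against 207 and 242 and rose by 0.53 (SE 0.12). It lies on chromosome 1, and with the median of its chromosome subtracted its change was 0.27 (limma adjusted p = 0.363). Aimp2, a scaffold of the synthetase complex, rose by 0.57, and 29.4% of its exon bases overlap another gene. Both lost the call with either EV library left out. The unfolded protein response list had no call by limma, edgeR or DESeq2 among 32 genes, 7 at an unadjusted p under 0.05, a median of 0.16 and groups apart upward in 14. Its chaperone Hspa5 had 492 and 533 against 651 and 614 (0.30, limma adjusted p = 0.105).

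ATF4 binds composite sites of the form TGATGNAA, which was searched on both strands of the 250 bases before each gene's start. It stands in 3.45% of all promoters in RefSeq (GRCm38.p6) and in 166 of the 7415 tested genes with a promoter there (2.24%). It stands in 7 of 28 promoters of the ATF4 list, in 3 of 15 of the synthetases and in 0 of 16 of the collagens. Other counts were 1 of 22 matricellular, 2 of 47 G2/M and 0 of 42 ribosomal protein genes. Among called genes they were 4 of 88 rises and 1 of 40 falls. The 10 ATF4-list and synthetase genes with a match all had both OE libraries above both EV libraries, beside 27 of 32 and 15 of 23 in those lists. Of the 10, 1, Asns, passed the threshold. The stretches below are shown because the match, in capitals, sits in genes of these lists, Asns, Got1 and Slc7a11 of the ATF4 list and Aars and Tars of the synthetases. They run 5′ to 3′ on the gene's strand.
Asns, chr6:7693210-7693289, minus strand: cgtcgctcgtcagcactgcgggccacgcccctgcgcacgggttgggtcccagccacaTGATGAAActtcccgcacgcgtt
Aars, chr8:111033694-111033773, plus strand: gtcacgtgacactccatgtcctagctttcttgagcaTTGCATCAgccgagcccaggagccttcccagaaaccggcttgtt
Got1, chr19:43524664-43524743, minus strand: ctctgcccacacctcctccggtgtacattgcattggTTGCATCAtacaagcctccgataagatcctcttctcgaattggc
Slc7a11, chr3:50443636-50443715, minus strand: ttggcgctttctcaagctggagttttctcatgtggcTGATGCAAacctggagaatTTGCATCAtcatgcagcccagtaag
Tars, chr15:11399659-11399738, minus strand: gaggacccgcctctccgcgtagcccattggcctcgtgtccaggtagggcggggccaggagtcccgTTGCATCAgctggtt
The changes were 0.78 for Asns, 0.33 for Aars, 0.39 for Got1, 0.56 for Slc7a11 and 0.31 for Tars, and only that of Asns passed. A match is a match of letters and was not tested as a binding site.

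Each of 4 lists of extracellular matrix genes had rises, and none had a fall, although 1 matricellular gene fell with chromosome medians subtracted. Among 19 collagens 4 rose, with a median of 0.20 and groups apart upward in 13 and downward in 3. Col6a3 (chr1:90765923-90843971), a chain of the beaded-filament collagen VI, had 64.0 and 67.0 against 196 and 222, a rise of 1.66 (SE 0.14, limma adjusted p = 1.65e-08). It is on chromosome 1, and its change was 1.40 with the chromosome median subtracted (limma adjusted p = 7.84e-07). The basement membrane chains Col4a2 (0.95) and Col4a1 (0.60) rose as well, as did Col1a1. Of 28 matricellular and structural genes 5 rose, Spp1, Tnc, Lamb1, Thbs1 and Fbln2, with groups apart upward in 15 and downward in 5. Tnc, tenascin C, had 57.4 and 64.0 against 123 and 118 and rose by 0.98 (SE 0.15, limma adjusted p = 0.000376). Fbln2, Lamb1 and Thbs1 rose by 0.57, 0.61 and 0.59. Of 23 matrix proteases and inhibitors 3 rose, with groups apart upward in 7 and downward in 3. Timp1, an inhibitor of metalloproteinases, had 177 and 153 against 306 and 318 and rose by 0.92 (SE 0.12, limma adjusted p = 3.62e-05), and the proteases Mmp2 and Mmp3 rose by 0.92 and 0.90. Plod3, a lysyl hydroxylase, was the 1 rise among 20 collagen processing genes (0.52), where the groups were apart upward in 7 and downward in none. Col6a3, Spp1, Tnc and Timp1 passed with any 1 library left out. Col4a2 and Mmp2 did not without the first EV library, Mmp3 and Fbln2 did not without the second, and Col4a1, Col1a1, Lamb1, Thbs1 and Plod3 did not with either left out.

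Secreted growth factors, chemokines and their receptors had 7 rises and 1 fall among 37 genes, a median of 0.41, and groups apart upward in 21 and downward in 3. Met, the receptor of hepatocyte growth factor, had 129 and 122 against 244 and 239 and rose by 0.94 (SE 0.12, limma adjusted p = 3.62e-05). Ereg, a ligand of the EGF receptor, had 9.23 and 12.8 against 32.9 and 31.4 and rose by 1.48 (SE 0.29, limma adjusted p = 0.00386). The others that rose were Igfbp4, Notch1, the colony-stimulating factor Csf1 (0.59) and the chemokines Ccl2 (0.57) and Ccl7 (0.68). The fall was Ptn. The early transcription factor Myc had 77.8 and 76.0 against 135 and 129 and rose by 0.77 (SE 0.14, limma adjusted p = 0.00242), and the phosphatase Dusp5 rose by 1.15. They were the 2 rises among 27 immediate-early and YAP or SRF target genes. Met, Ereg, Igfbp4, Ptn and Myc passed with any 1 library left out. Notch1 did not without the first EV library, Dusp5 not without the second OE library, Ccl7 not without the second EV or the first OE library, and Csf1 and Ccl2 not with either EV library left out.

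**Figure D3:**
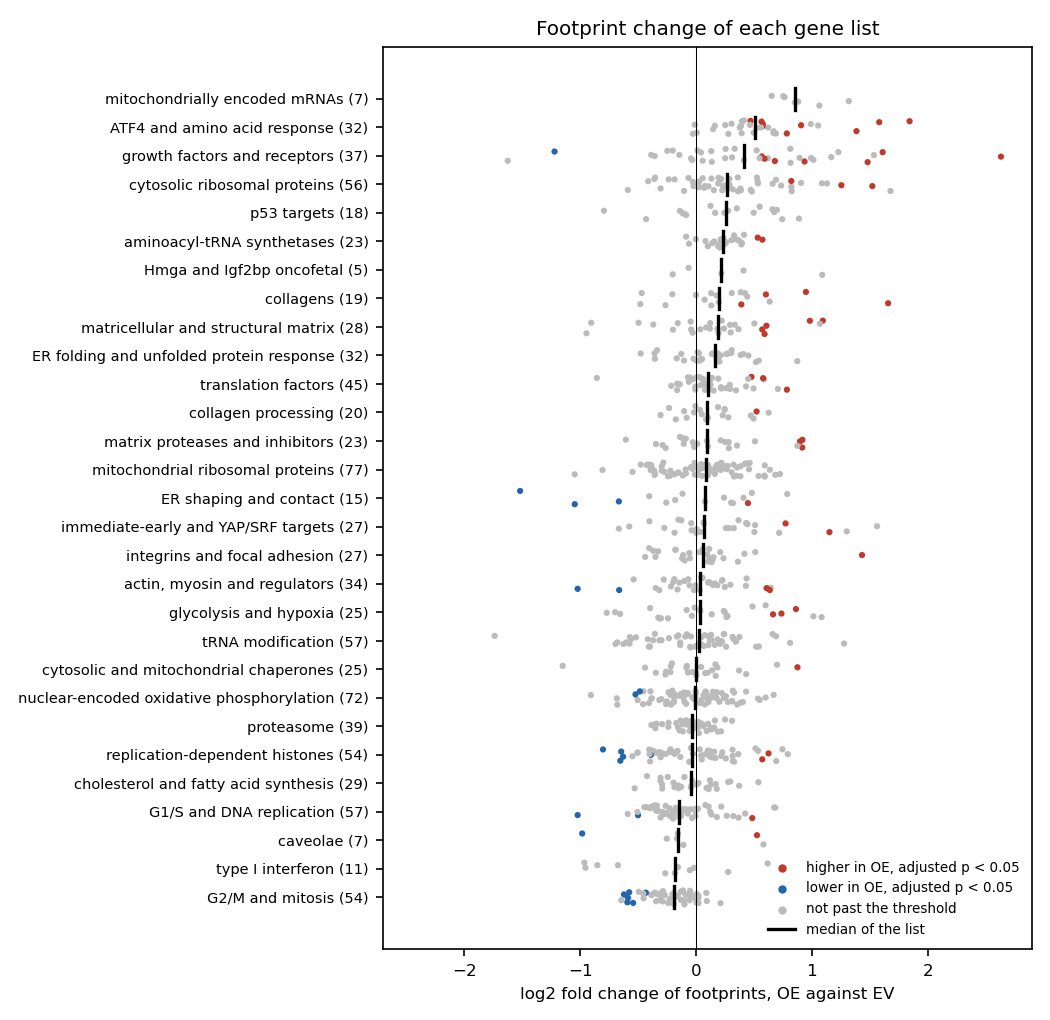
Log2 fold change of every measured gene in each list, with 1 row a list, points coloured by whether the gene passed the threshold and a bar at the list's median. The ATF4 and growth factor lists have medians of 0.51 and 0.41, and the G2/M list lies to the left of 0 with a median of -0.19.

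Adhesion and cytoskeleton genes moved in both directions. Tes, a LIM protein of focal adhesions, had 51.4 and 74.5 against 152 and 188 and rose by 1.43 (SE 0.16, limma adjusted p = 5.92e-06), the 1 call among 27 integrin and adhesion genes. In the actin and myosin list of 34 genes, Tagln2 (0.61) and Ezr (0.64) rose, while Coro1b (-0.66) and the light chain Myl6 (-1.02) fell. Tagln2 is on chromosome 1 and Myl6 on chromosome 10, and neither passed with the chromosome median subtracted (limma adjusted p = 0.107 and 0.124). Myl6 had 62.0 and 58.0 against 40.6 and 20.7. Within the 7 caveolar genes, Cav1 rose by 0.53 and Cavin2 fell by 0.98. Cav1 is on chromosome 6, whose parts shifted in opposite directions as described below. Of 15 genes that shape or tether the reticulum, Rtn4 rose by 0.45 and Arl6ip1, Reep5 (-0.67) and Esyt1 fell. Tes passed with any 1 library left out. Tagln2 lost the call without the first EV library, Esyt1 without the second, and Ezr, Coro1b, Cav1, Reep5 and Rtn4 with either left out. Without the first OE library the change of Rtn4 was 0.25, and without the second that of Myl6 was -0.55, and neither passed.

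Cell cycle genes had more falls than rises. Of 54 genes of G2/M and mitosis 6 fell and none rose, and the groups were apart downward in 28 and upward in 1, with a median of -0.19. Cdk1, the kinase that drives entry into mitosis, had 403 and 425 against 282 and 286 and fell by 0.54 (SE 0.10, limma adjusted p = 0.00345). It lies on chromosome 10, and its change was -0.25 with the chromosome median subtracted (limma adjusted p = 0.292). Ncapd2 (-0.59) and Ncaph (-0.62) of condensin, the cyclin Ccnb2 (-0.59) and the kinesins Kif20a (-0.43) and Kif2c (-0.58) passed with and without that subtraction. The list's median was -0.21 with it. Ncapd2 lies on chromosome 6, whose parts shifted in opposite directions as described below, so for Ncapd2 the subtraction does not follow its own region. Of 57 genes of G1/S and DNA replication, 2 fell and 1 rose, with groups apart downward in 24 and upward in 8 and a median of -0.15. The inhibitor Cdkn1b, known as p27, had 42.2 and 46.7 against 20.3 and 22.5 and fell by 1.02 (SE 0.22, limma adjusted p = 0.0121). Slbp, which binds the stem-loop of histone mRNAs, fell by 0.50. The cyclin Ccnd1 rose by 0.49, with 281 and 247 against 344 and 396. Ncapd2 lost the call without the first EV library, and Cdk1, Ccnb2, Kif20a, Kif2c, Ncaph, Cdkn1b, Slbp and Ccnd1 lost it with either EV library left out.

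Replication-dependent histones had 2 rises and 5 falls among 54 genes and a median of -0.04. Hist1h2af had 137 and 134 against 80.1 and 74.5 and fell by 0.80 (SE 0.14, limma adjusted p = 0.00175), and Hist1h4f, Hist1h4c, Hist1h2bc and Hist1h1b fell by 0.65, 0.65, 0.63 and 0.39. Hist1h3e rose by 0.63 and Hist2h3b by 0.57. Without the first OE library Hist1h3e, Hist1h4f and Hist1h4c had changes of 0.39, -0.36 and -0.37. With single libraries left out, Hist1h2af passed in 4 of 4 fits, Hist1h3e, Hist1h4f and Hist1h2bc in 3, Hist1h4c in 2, and Hist2h3b and Hist1h1b in 1. Of the 54 genes 47 are on chromosome 13, whose median was -0.19, and with chromosome medians subtracted the list had 9 rises and 1 fall and a median of 0.11, so its direction turns with that setting. Copies are near identical: of the 28-base subsequences of Hist1h2af 13.2%, and of Hist1h3e 14.1%, are found in no other gene, so values of single histone genes are uncertain. All exon bases of Hist2h3b (100%) overlap another gene, as do 20.7% of Cebpb, 22.1% of Dusp5, 23.4% of Ccnd1 and 29.3% of Kif20a.

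The genes of the translation apparatus that passed all rose. Among 56 cytosolic ribosomal proteins 3 rose and none fell, with a median of 0.27 and groups apart upward in 23 and downward in 3. By edgeR 5 of them were higher and 1 lower. Rpl13a had 26.4 and 33.1 against 101 and 74.5 and rose by 1.52 (SE 0.19, limma adjusted p = 3.62e-05), but 41.7% of its 28-base subsequences are found in no other gene and 35.4% of its exon bases overlap another gene. Rps15a rose by 1.25 and did not pass without the second EV library. Rps14 had 378 and 332 against 945 and 417, so its rise of 0.82 comes mostly from the first OE library, without which it did not pass. The initiation factor Eif6, with 129 and 137 against 333 and 158, did not pass without that library either. It was 1 of 3 rises among 45 translation factors, beside Eif3f (0.58) and Eef1b2 (0.48), which did not pass with either EV library left out. Without the first OE library the changes of Rps14 and Eif6 were 0.23 and 0.25. The translation factors had a median of 0.11, with groups apart upward in 19 and downward in 5. Eef1b2 is on chromosome 1 and did not pass with the chromosome median subtracted (0.22, limma adjusted p = 0.391). None of 57 tRNA modification genes passed by limma, edgeR or DESeq2, 6 had an unadjusted limma p under 0.05, beside 1298 of all 9296 genes, and their median was 0.03.

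Of 13 listed mitochondrially encoded mRNAs 7 were tested. Their summed level was 118 and 89.6 in EV against 205 and 173 in OE. Their median difference of the first EV library from the second was 0.31. All 7 were above EV in both OE libraries, with changes from 0.65 to 1.32 and a median of 0.85, and none passed limma or DESeq2. By edgeR 1 passed, and 6 had an unadjusted limma p under 0.05. mt-Co1 had 27.7 and 30.1 against 52.1 and 46.7 (0.75, limma adjusted p = 0.054), and mt-Cytb had 32.3 and 15.8 against 51.04 and 34.1. Mitochondrial ribosomes translate these mRNAs and are not stopped by cycloheximide. The nuclear-encoded subunits of the respiratory chain had a median of -0.01 among 72 genes, and 2 fell: Atp5b, with 1666 and 1521 against 1089 and 1187, and Uqcrfs1 (-0.52). They are on chromosomes 10 and 13, and neither passed with chromosome medians subtracted (limma adjusted p = 0.358 and 0.292), nor with either EV library left out.

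Among 25 genes of glycolysis and hypoxia, Hif1a (0.66), Eno1 (0.74) and Pfkp (0.86) rose, and 22% of the 28-base subsequences of Eno1 are found in no other gene. Pfkp did not pass with any 1 library left out, Eno1 passed in 1 of 4 such fits and had a change of 0.43 without the first OE library, and Hif1a did not pass without the second EV library. The small heat shock protein Hspb8 (0.88) was the 1 rise among 25 chaperones and did not pass without either EV library or the first OE library. No gene passed limma or DESeq2 in the lists of mitochondrial ribosomal proteins (77 genes), the proteasome (39), p53 targets (18), type I interferon (11), cholesterol and fatty acid synthesis (29) or Hmga and Igf2bp genes (5). Their medians were 0.09, -0.03, 0.26, -0.18, -0.04 and 0.22, and 10, 4, 5, 4, 4 and 1 of their genes had an unadjusted limma p under 0.05. By edgeR 2 mitochondrial ribosomal proteins passed and none of the other 5 lists had a call. Hmga2, a chromatin protein of embryonic cells, had 45.5 and 52.0 against 37.3 and 47.6 (-0.20, limma adjusted p = 0.704), and the groups overlapped. Of 3 neural markers Tubb3, a neuronal tubulin, had 19.1 and 15.1 against 34.0 and 39.5 and rose by 1.07 (SE 0.25, limma adjusted p = 0.0202), though not without the second EV library, while Nes and Map2 had changes of -0.02 and -0.29.

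Changes were not spread evenly over the genome. On chromosome 1 the median of 513 genes was 0.26, 80.1% of them were above 0, and 17 rose while 2 fell. On chromosome 10 the median of 453 genes was -0.30, 80.6% were below 0, and 2 rose while 12 fell. Chromosome 13 had a median of -0.19 over 371 genes, with 2 rises and 7 falls. Each OE library showed this alone: against the EV mean the medians were 0.28 and 0.24 for chromosome 1 and -0.29 and -0.26 for chromosome 10. All 10 bins of 10 Mb on chromosome 1 were above 0, between 0.24 and 0.30, and all 9 on chromosome 10 were below it, between -0.41 and -0.17. Chromosome 6 was divided. Its first 40 Mb had a median of 0.13 over 92 genes, and 10 rose and 1 fell there. From 60 Mb to 160 Mb the median was -0.24 over 288 genes, and 1 rose and 6 fell. Subtracting the whole chromosome's median of -0.14 raises changes in the first part and leaves some of the shift in the later part. Asns, Mdfic, Tes and Met lie in the first part. The median over neighbouring genes was 0.16 at Mdfic and Tes and 0.13 at Met. Mdfic (chr6:15720661-15802169), Tes (chr6:17065149-17105828) and Met (chr6:17463800-17573980) lie near one another, and a median over 51 genes takes in a wider stretch. Tes and Met are counted in different lists above, and whether these genes rose as 1 stretch was not tested. The other 16 chromosomes with at least 100 genes had medians from -0.07 to 0.07. Single bins of 10 Mb on them ranged more widely, from -0.18 on chromosome 8 to 0.32 on chromosome 3. Between the EV libraries the medians of single chromosomes differed by -0.05 to 0.03. DNA copy number was not measured, and its part in these values was not tested.

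**Figure D4:**
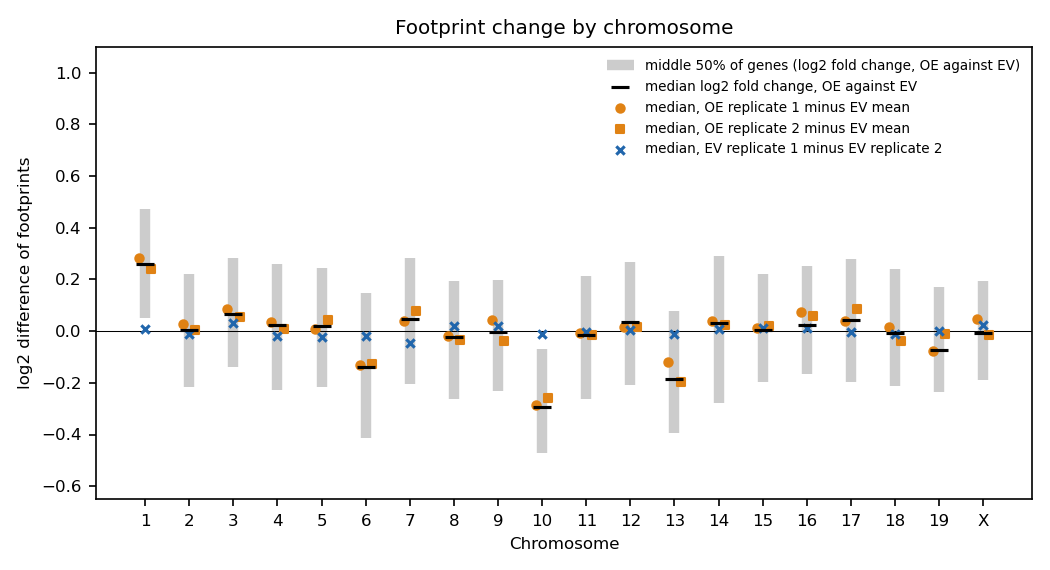
Median log2 footprint change of the genes on each chromosome, with the middle 50% of genes as bars, for OE against EV (dashes), for each OE library against the EV mean (circles and squares) and between the EV libraries (crosses). Chromosome 1 lies at 0.26 and chromosome 10 at -0.30, and both OE libraries are on the same side of 0 for each.

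With the median of its chromosome subtracted from every gene, 155 genes passed, 120 higher and 35 lower, and 130 of them were among the 174. The first-named genes Esx1 (3.99), Spp1 (1.07), Arl6ip1 (-1.57) and Ptn (-1.08) passed with little change, and so did the ATF4 list's median (0.52). The 4 falls at high level, Atp5b, Psap, Hist1h1b and Ahnak, no longer passed, with changes of -0.19, -0.17, -0.20 and -0.29, and neither did Cdk1.

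The design text asks about translation under METTL1 and WDR4, and AGA is the codon tied to the complex's arginine tRNA substrate. In 9272 genes with a complete coding sequence, the median gene had 10.6 AGA codons per 1000, the genes that rose 8.15 and those that fell 7.18. From the lowest to the highest of 5 equal groups of genes by AGA content the median change went from -0.02 to 0.02, a difference of 0.04. For the first OE library that difference was 0.12 and for the second -0.04, so its direction rests on the first OE library. Over the 9272 genes Spearman's rho between codon content and footprint change lay between -0.07 for GAG and 0.05 for AAT over the 61 codons. These are correlations across genes, which share libraries and base composition. The difference between the OE libraries had a rho of -0.20 with the share of G or C at the third codon position.

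**Figure D5:**
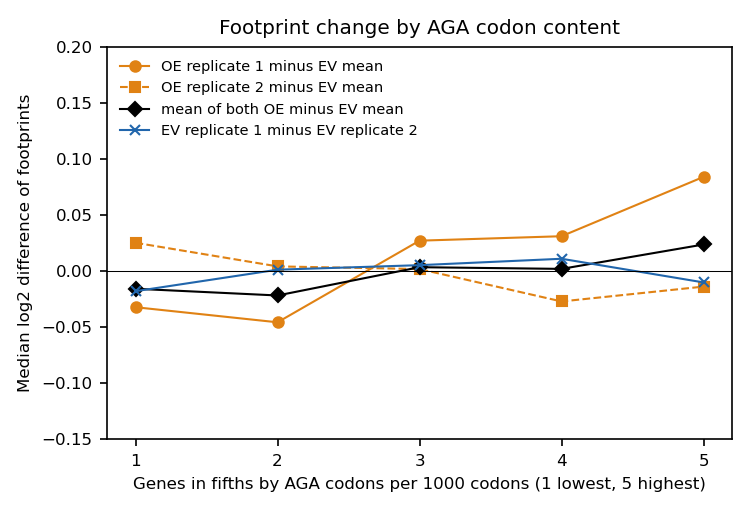
Median log2 footprint difference of genes in 5 equal groups by AGA codons per 1000 codons, for the mean of both OE libraries for each OE library against EV and for the first EV library against the second. The first OE library goes from -0.03 to 0.08 and the second from 0.03 to -0.01.

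As examples, 1 AGA-rich gene was picked from the rises and 1 from the falls, so their presence on both sides is not a result. Golim4, a Golgi membrane protein and the gene shown for the rises, had 38.2 and 33.9 against 59.3 and 63.8 and rose by 0.76, with 30.7 AGA codons per 1000. Slbp, with 171 and 188 against 122 and 131, fell and had 40 per 1000. Golim4 and Slbp were chosen for their AGA content among called genes, after their values were seen. A 90-base stretch of each coding sequence (GENCODE M21, mm10) is shown with its AGA codons, 3 in each, in capitals. Both read 5′ to 3′ in frame, from codon 154 to 183 of Golim4 and from codon 1 to 30 of Slbp.
Golim4: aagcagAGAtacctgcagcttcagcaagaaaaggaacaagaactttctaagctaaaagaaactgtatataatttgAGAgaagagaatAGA
Slbp: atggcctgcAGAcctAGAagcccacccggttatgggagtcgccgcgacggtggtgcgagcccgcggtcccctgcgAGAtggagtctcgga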

How the data were processed

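The submitters' processing notes name Bowtie and build mm10. Aligner version, read counting, strand handling and annotation were not given in the sources used here. Deposited values are a signal: size-factor-normalized reads per gene and library, made by the authors. Each value divided by the smallest of its library was whole within 1e-06 for 100% of the values, so reads were recovered. The authors' log2 fold change and p-value columns, deposited beside them, rest on input libraries and were not used. All 9307 genes have 1 or more reads in every library.

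limma 3.58.1 (R 4.3.3) with a mean-variance trend was fitted to log2(value + 1) of the 4 footprint libraries, for genes with a mean of at least 1, with Benjamini-Hochberg adjustment. The pseudocount understates changes of low genes. Alternatives used other pseudocounts, filters and scalings, limma voom, edgeR 4.0.16 and DESeq2 1.42.0 on recovered reads, a replicate block, each library left out, and centring by position, which was added after seeing the data. The fit was also run on simulated counts, drawn with the same spread around the mean in both groups and no shift of whole chromosomes. The data depart from both settings, so that run cannot vouch for the fit there, and no result here rests on it.

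Members and lists were chosen with earlier results of these data known. Named genes are the 15 largest rises and falls and the 10 highest levels, among calls with a mean of at least 10 and groups apart, and up to 4 members per list by smallest p. A gene that meets this rule is not reported here. Besides these the text names further called list members, Igsf10, Tysnd1, Atf4, the motif examples and Golim4. Of 9307 genes 9306 matched GENCODE M21, which gave symbols and 1-based coordinates. Precision is limited by depth, and intervals cover counting error only.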

Additional observations from a re-analysis of the deposited data

How the results depend on the processing

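The 174 calls, 119 higher and 55 lower, stayed within 1.5 times under other pseudocounts, filters, TMM factors, limma voom and edgeR (162 to 223 calls, and 173 of the 174 by edgeR). Without a trend limma called 1 gene, 1 higher and 0 lower, with 1047 at an unadjusted p under 0.05. DESeq2 called 38, 30 higher and 8 lower, among 2090 genes with an adjusted p, and all 38 were among the 174. Leaving out 1 library gave 57 to 427 calls, 49 to 215 higher and 8 to 212 lower; a group then has a lone library, assumed to vary like the other group. The replicate block gave 369 calls, 224 higher and 145 lower. Deviations of same-numbered libraries correlated at 0.00847. The variance between EV libraries was only 1.09 times that of counting error, and that between OE libraries 1.78 times. With so little spread between the EV libraries, this correlation cannot tell whether same-numbered libraries were paired. Centring by chromosome left 35 falls and centring on 51 neighbouring genes left 28, with 155 and 129 calls in all. None of the 100 named genes past the threshold changed direction under any setting run, and 173 of all 174 calls kept theirs with neighbour centring, the 1 exception being Ipo5. Of named genes not past it, Mettl1 turned to -0.18 without the first OE library, Hmga2 to 0.09 with chromosome centring, and Nes, Lpl and Cct2 turned under 1 or more settings. The AGA difference of 0.04 lay between 0.03 and 0.06 under other settings, apart from -0.04 without the first OE library and 0.12 without the second. Depth limits the rest: the median gene had 23 reads in the second OE library.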
